A study of Mus musculus with 13 samples.

Results

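The mitochondrial carriers of solute carrier family 25 were described in mouse liver by their RNA levels. The members were the protein-coding rows of the liver table whose symbol starts with Slc25a and a number, a rule on names and gene type alone. They came to 40 of the 11396 protein-coding genes and of the 11779 genes listed in all. GENCODE annotates 47 such genes. The other 7, Slc25a2, Slc25a18, Slc25a31, Slc25a35, Slc25a41, Slc25a43 and Slc25a54, were not analysed here.

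The study knocked down the lncRNA LL35 in the liver of Balb/c mice and in AML12 cells, a line of normal mouse hepatocytes. In the LL35 ASO group, 3 mice received antisense oligonucleotides (ASOs) coupled to GalNAc, per the labels a mix of 5, although the study's list of oligonucleotides for mice holds fewer. The 3 mice of the Luc ASO group received a GalNAc-coupled ASO against firefly luciferase, an RNA that mice do not have. All livers were taken on day 5. GalNAc is a sugar that hepatocytes take up through a receptor of their own, so the conjugates reach hepatocytes while the sequenced RNA came from whole liver tissue. The 7 AML12 libraries, 4 with LL35 ASOs and 3 with the Luc ASO, were not analysed here.

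The measure described is the authors' mean normalized count, a single value for each gene over the liver libraries of both groups together. It has no spread between mice, so no error, interval or test stands beside any level below, and small differences between genes cannot be judged against the variation between animals. For the same reason the levels say nothing of LL35 knockdown: a difference between the LL35 ASO and the Luc ASO livers was not analysed here. The depth of each library is unknown. To compare genes, each mean was divided by the length of the gene's merged exons, and "level" below is always the mean normalized count per kilobase of exon. In a bulk tissue, a lower level from fewer cells of a type and one from less RNA in each cell cannot be told apart.

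Carriers of this family sit in the inner mitochondrial membrane and move nucleotides, amino acids, carboxylates, cofactors and inorganic ions between the cytosol and the matrix. Most are built from a repeated unit that forms a pore with a gate on each side. In hepatocytes they connect the steps of the urea cycle, the malate-aspartate shuttle, gluconeogenesis, fatty acid oxidation and lipid synthesis, pathways that run partly in the matrix and partly in the cytosol. The family is broader than its name. Slc25a17 encodes a peroxisomal protein and Slc25a46 one of the outer mitochondrial membrane, and Ucp1, Ucp2, Ucp3, Mtch1 and Mtch2 belong to the family under other symbols.

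The coding sequences of the 40 members ranged from 822 to 2031 bases with a median of 954. Over the 780 pairs of members, the identity of aligned coding bases had a median of 47.7% and reached 77.6% for Slc25a5 and Slc25a4, the closest pair. Both encode ADP/ATP carriers, which exchange ADP from the cytosol for ATP from the matrix. The first 120 coding bases of this pair are shown because the levels of the 2 genes differed widely and because similar sequences decide where reads can be placed. Capitals mark the 26 positions at which they differ, and the other 94 are the same.
Slc25a5: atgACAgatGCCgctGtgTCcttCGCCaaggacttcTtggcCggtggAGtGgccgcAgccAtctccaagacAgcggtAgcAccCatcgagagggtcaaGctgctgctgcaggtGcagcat
Slc25a4: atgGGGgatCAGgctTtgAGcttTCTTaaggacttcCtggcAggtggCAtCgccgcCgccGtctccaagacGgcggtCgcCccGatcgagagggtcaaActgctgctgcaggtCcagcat

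A second limit of the counts comes from copies of a gene elsewhere in the genome. STAR counts a read for a gene only when it maps to a single place, so reads from sequence that another gene also holds can be lost. For each carrier, the windows of 50 bases in the transcript with the longest coding sequence were looked up in all other annotated transcripts, on both strands. The enzymes and other transporters set beside the carriers below were not looked up in this way. In 22 of the 40 carriers no window was found elsewhere, and in 17 of the other 18 the share was at most 12.6%. The exception was Slc25a5, with 46.6% of its 1191 windows also present in 9 pseudogenes. The window of its coding bases 253 to 302, which was found in 5 of these genes, is shown as the example held by most copies.
Slc25a5 window: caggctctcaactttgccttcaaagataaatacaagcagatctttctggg

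**Figure D1:**
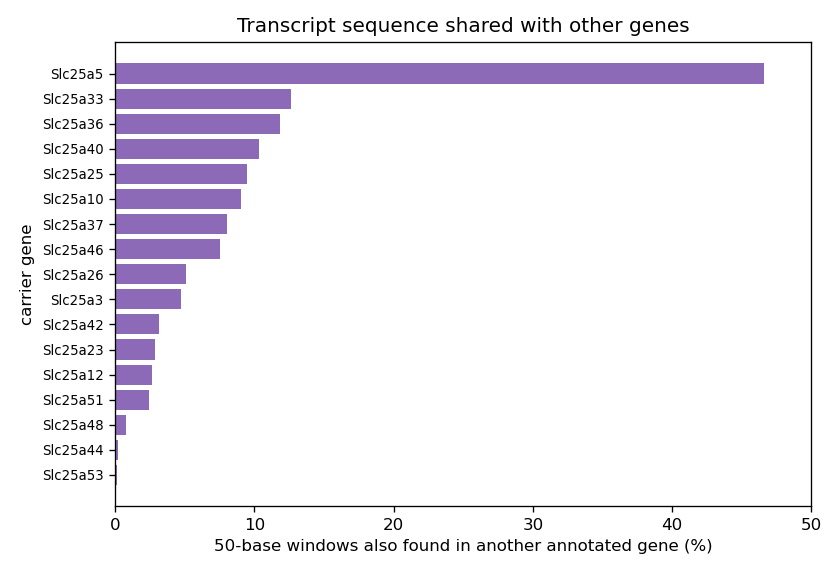
Share of 50-base transcript windows (percent, horizontal axis) that another annotated gene also holds, for 17 of the 18 carriers (vertical axis) with any such window. The bar of Slc25a5 reaches 46.6% and the next, that of Slc25a33, 12.6%.

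Levels ran from 2.79 for Slc25a53 to 2611 for Slc25a47, a ratio of 936. With no length scaling the ratio of highest to lowest was 389. Slc25a14 was then the lowest, as it was by coding length. The median level was 104, against 52.1 over the 11385 protein-coding genes that had an exon length. It stood at percentile 70.1 of those genes. Of the 40 carriers, 27 (67.5%) lay above the median of protein-coding genes and 11 (27.5%) within their top 10%. The 187 other listed Slc genes, which encode transporters of other families, had a median of 53.5, with 51.3% above the median of protein-coding genes and 12.8% in the top 10%. The low end of the carriers was close to that of all protein-coding genes, with lower quartiles of 21.01 and 21.07, while the upper quartiles were 388 and 128. The lowest mean normalized count in the table was 15.6, so the low end of both sets and every percentile are those of genes at or above this count. No test stands behind these differences.

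**Figure D2:**
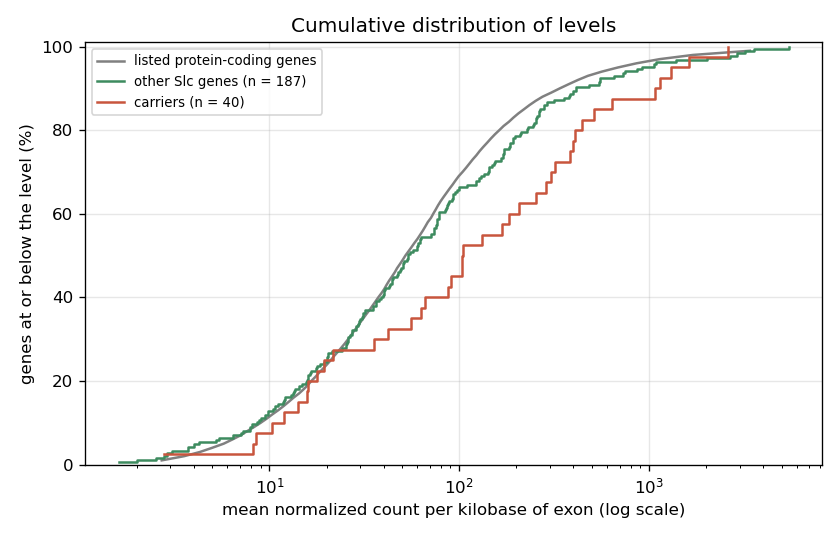
Cumulative share of genes (percent, vertical axis) at or below a level (mean normalized count per kilobase of exon, horizontal log axis) for the 40 carriers, the 187 other Slc genes and the listed protein-coding genes. The curves of carriers and protein-coding genes lie close together up to about the lower quartiles of 21.01 and 21.07, and the carriers then lie to the right, with medians of 104 and 52.1.

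A few members held most of the family's RNA. The summed mean normalized counts of the 40 carriers made up 0.452% of the sum over all listed genes. Within the family, the 5 carriers with the highest counts held 51.6% of the sum and the 10 highest held 75.7%, while the 20 lowest together held 5.55%. By transported substrate, the 8 amino acid and carnitine carriers held 32.3% and the 6 carriers of adenine nucleotides and phosphate held 24.2%. The single gene Slc25a47 held 15.3%. These shares are of counts without length scaling. Of the summed levels, the amino acid and carnitine carriers held 26.3% and those of adenine nucleotides and phosphate 24.0%.

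**Figure D3:**
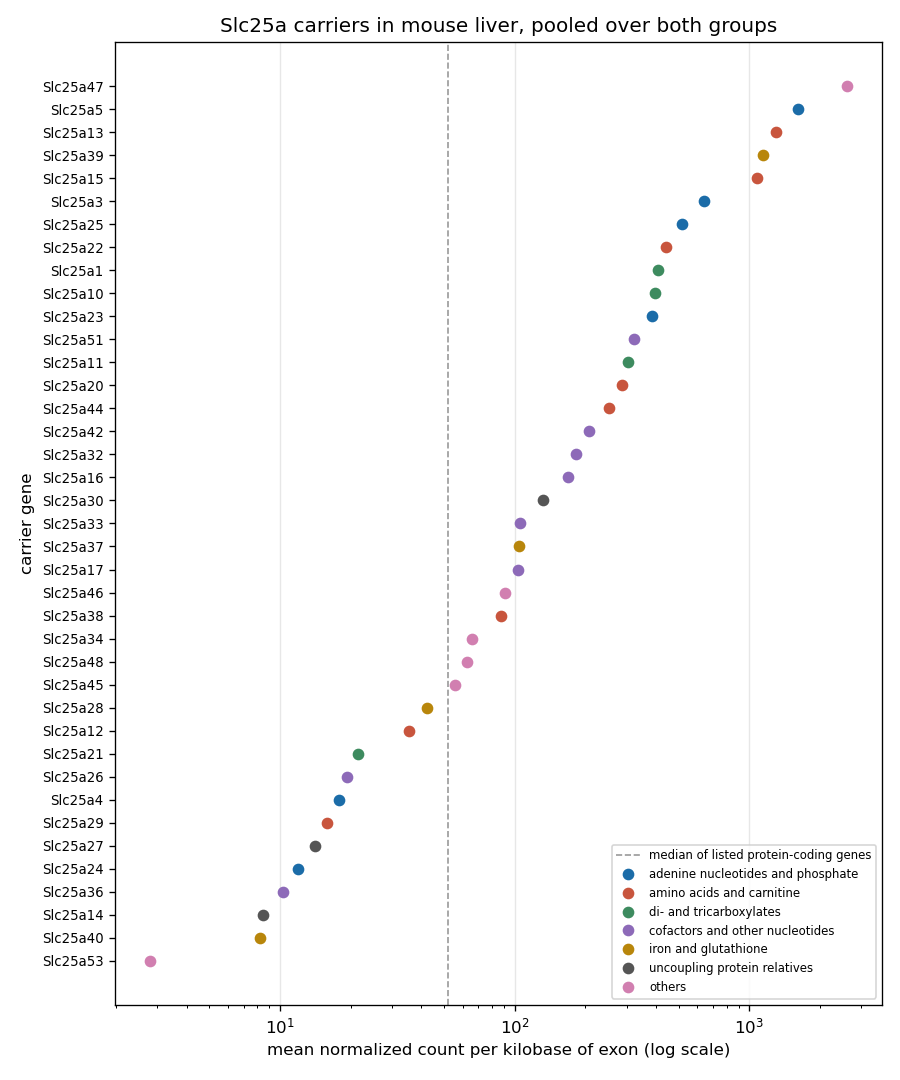
Level of 39 of the 40 carriers (mean normalized count per kilobase of exon over both groups, horizontal log axis), sorted and coloured by transported substrate, with the median of listed protein-coding genes (52.1) as a dashed line. Points stand for single pooled values without error, and 27 lie right of the line, from Slc25a45 at 55.4 to Slc25a47 at 2611.

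Slc25a47, a carrier gene known for its strong expression in liver and whose transported substrate is not settled, stood first. Its mean normalized count was 7794, its level was 2611 and its percentile among protein-coding genes was 98.6. The other members of the group left without a named substrate here were far lower. Slc25a46, whose product shapes mitochondria from the outer membrane, had a level of 91.0. Slc25a34, Slc25a48 and Slc25a45 had levels of 65.8, 62.7 and 55.4, all close to the median of protein-coding genes. Slc25a53 was the lowest carrier by exon length, with a mean normalized count of 22.2 over 7963 bases of exon.

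Among the carriers of adenine nucleotides and phosphate, which feed oxidative phosphorylation, the level of Slc25a5 was 1617 and that of Slc25a4, the isoform known from heart and skeletal muscle, was 17.9. The mean normalized counts were 2662 and 42.1, and the levels differed 90.4-fold. Since reads from 46.6% of its windows may not be countable, the level of Slc25a5 was also divided by the share of windows not held elsewhere. This gave 3028, the highest of the family, and widened the ratio to 169. The share came from a single transcript with 1191 windows but was applied to 1646 bases of merged exon. Exon bases outside that transcript were not looked up, so this value and its first place are uncertain. Whether reads were lost to shared windows was not tested. Slc25a3, which imports the phosphate that ATP synthase uses, had a level of 638. The 5 muscle markers looked up (Ckm, Acta1, Myh4, Myh6 and Tnnt2) were not among the genes analysed here.

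The ATP-Mg/phosphate carriers, calcium-regulated exchangers that set the adenine nucleotide content of the matrix, had 2 members at similar levels and 1 far below. Slc25a25 had a level of 516 and Slc25a23 one of 385, a ratio of 1.34. Slc25a24 had a level of 11.9, so that Slc25a23 was 32.3-fold above it.

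Amino acid carriers included several of the highest members. Slc25a13 encodes citrin, the liver form of the aspartate/glutamate carrier, which delivers aspartate to the urea cycle and takes part in the malate-aspartate shuttle. Its level was 1300.1 and its mean normalized count 4938. Slc25a12 encodes aralar, the form of brain and muscle, and had a level of 35.4, so the ratio of this pair was 36.7 by exon length. By coding length it was 19.0. The coding sequences of the pair were 70.8% identical.

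Slc25a15, the ornithine carrier that returns ornithine to the matrix for the urea cycle, had the second highest mean normalized count of the family, 6056, and a level of 1076 over 5629 bases of exon. Scaled by coding length instead, Slc25a15 stood in place 2 and Slc25a13 in place 8, whereas by exon length they stood in places 5 and 3. The order of these high carriers therefore rests on the length used. Slc25a22, a glutamate carrier, had a level of 442, and Slc25a20, which exchanges acylcarnitines for carnitine in fatty acid oxidation, one of 286. Slc25a44, a carrier of branched-chain amino acids, had a level of 253 and Slc25a38, which provides glycine for heme synthesis, one of 87.6. Slc25a29, a carrier of basic amino acids, was the lowest of the group at 15.8.

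Of the 4 carriers of di- and tricarboxylates, 3 lay close together by exon length. Slc25a1 exports citrate, the carbon source of fatty acid and cholesterol synthesis, and had a level of 408. Slc25a10, the dicarboxylate carrier, had a level of 397 and Slc25a11, the oxoglutarate carrier of the malate-aspartate shuttle, one of 305. By coding length Slc25a10 stood above Slc25a1, and its ratio to Slc25a11 was 2.32 in place of 1.30. Slc25a21, which carries oxodicarboxylates from lysine and tryptophan breakdown, was lower, with a level of 21.6 and a mean normalized count of 105.

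Carriers of cofactors and other nucleotides covered a 31.3-fold range. Slc25a51, which brings NAD into mitochondria, was the highest at 321. Slc25a42, a coenzyme A carrier, had a level of 207, Slc25a32, linked to folate and FAD, one of 182, and Slc25a16, linked to coenzyme A, one of 168. These were followed by Slc25a33, a pyrimidine nucleotide carrier, at 105 and the peroxisomal Slc25a17 at 103. Lower still were Slc25a26, which imports the methyl donor S-adenosylmethionine, at 19.3 and the second pyrimidine nucleotide carrier Slc25a36 at 10.3. The ratio of Slc25a33 to Slc25a36 was 10.2 by exon length and 1.95 by coding length. Merged exons of 1887 bases are annotated for Slc25a33 and of 9594 for Slc25a36, against coding lengths of 960 and 933.

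Of the glutathione carriers, which import the antioxidant tripeptide into the matrix, Slc25a39 had a level of 1147 and Slc25a40 one of 8.21. Their ratio of 140 was the largest among neighbouring paralogues by exon length. By coding length it was 43.1, behind the 63.2 of Slc25a5 over Slc25a4 and the 50.7 of Slc25a23 over Slc25a24. The mitoferrins bring iron to the matrix for heme and iron-sulfur clusters. Slc25a37, the form prominent in red cell precursors, had a level of 104 and Slc25a28, the more widespread form, one of 42.1, a ratio of 2.47 by exon length and 4.27 by coding length. Of 3 erythroid markers, Hba-a1 had a level of 389 and Alas2, the heme synthesis enzyme of red cell precursors, one of 31.7, and Hbb-bs was not among the genes analysed here. Hba-a1 has a near-identical copy, so its count is uncertain. The part of blood cells in the level of Slc25a37 was not tested.

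The uncoupling protein relatives were low apart from Slc25a30, at 132. Slc25a27 and Slc25a14, both known from brain, had levels of 14.1 and 8.48, and Slc25a14 had the lowest mean normalized count of the family, 20.1. Under other symbols, Ucp2 had a level of 98.4, Mtch1 one of 99.8 and Mtch2 one of 201. Ucp1 and Ucp3 were not among the genes analysed here.

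**Figure D4:**
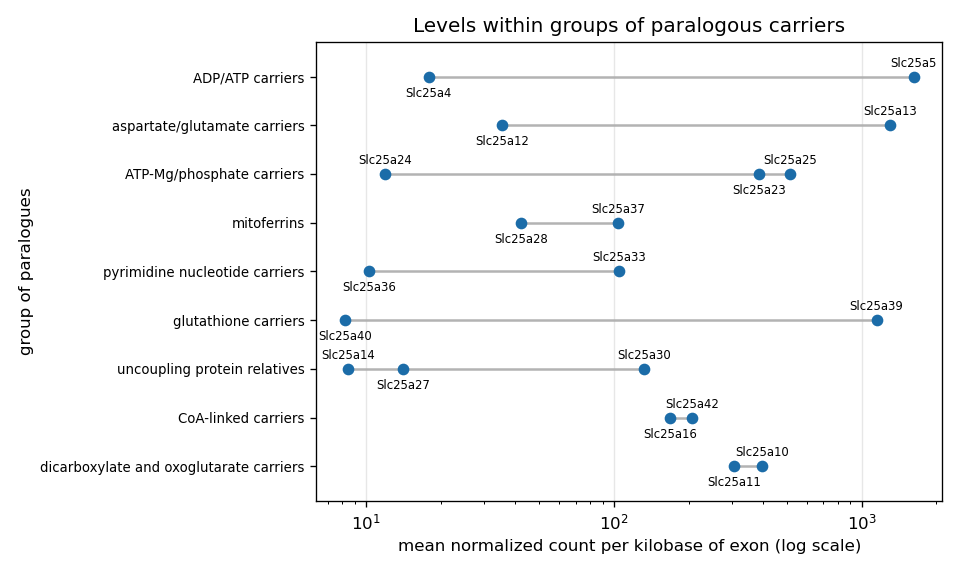
Level (mean normalized count per kilobase of exon over both groups, horizontal log axis) of each analysed carrier within the 9 groups of paralogues that had at least 2 analysed members. Each point is a single pooled value without error, and by this length the distance is largest for the glutathione carriers (1147 and 8.21) and smallest for the CoA-linked carriers (207 and 168).

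Across 13 groups of paralogues, 9 had at least 2 members analysed here, giving 11 neighbouring pairs. In 6 of the 11 pairs the higher member was more than 5-fold above the lower one by exon length, and in 5 by coding length. In 3 pairs, Slc25a42 over Slc25a16, Slc25a10 over Slc25a11 and Slc25a25 over Slc25a23, the ratio was below 1.5 by exon length, and by coding length no pair was this close. Ratios of this size cannot be set against a spread between mice here. No pair changed its order with coding length, with no length scaling or with the windows held elsewhere left out.

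The tissue label was checked against marker genes. All 8 hepatocyte markers were listed, with a median level of 24110 and the lowest, Hnf4a, at 2550.1. The 5 Kupffer cell markers had a median of 275, the 5 endothelial markers one of 126 and the 4 stellate cell markers one of 56.8, and 1 of 4 cholangiocyte markers was listed. None of the markers of muscle, brown fat and testis were among the genes analysed here. The part of each cell type in the carriers' levels was not tested.

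Enzymes of the pathways that carriers serve stood both above and below them. Of the urea cycle enzymes, Cps1, which makes carbamoyl phosphate in the matrix, had a level of 15344, which was 14.3-fold that of Slc25a15 by exon length and 2.82-fold by coding length. Otc, which joins carbamoyl phosphate to the ornithine that Slc25a15 delivers, had a level of 719, below that of the carrier by either length. Ass1, the cytosolic enzyme that uses the aspartate exported by Slc25a13, had a level of 4967, or 3.82-fold that of the carrier. The median of the 6 urea cycle genes was 3500.4.

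In the malate-aspartate shuttle, Got2, the matrix aminotransferase, had a level of 659 and Mdh2, the matrix malate dehydrogenase, one of 415. Slc25a13 stood above Got2 by exon length, but by coding length the ratio of Got2 to Slc25a13 was 1.01. Slc25a11, at 305, stood below Mdh2 by both. For fatty acid oxidation, Cpt1a, which makes acylcarnitines at the outer membrane, had a level of 1187. Cpt2, which moves the acyl group from carnitine to coenzyme A in the matrix, had a level of 872. Slc25a20, which acts between them, had one of 286. By coding length Slc25a20 stood above Cpt2, so their order depends on the length used. Crat, the carnitine acetyltransferase, had a level of 227 and stood below Slc25a20 by both lengths. For lipid synthesis, the citrate exporter Slc25a1 at 408 stood above Acly, the cytosolic enzyme that splits citrate, at 253, and above Cs, the matrix citrate synthase, at 195, by both lengths.

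Of the carrier and enzyme pairs set side by side, the widest gap was that of S-adenosylmethionine. Mat1a, the liver enzyme that makes it, had a level of 22750.4 and Slc25a26 one of 19.3, a ratio of 1176 by exon length and 587 by coding length. Alas1, the first enzyme of heme synthesis, had a level of 2396, which was 27.4-fold that of Slc25a38, the glycine carrier, while Fech, the last, had a level of 126 against the 104 of Slc25a37, a ratio of 1.21 by exon length and 2.22 by coding length. Atp5b, the catalytic subunit of ATP synthase, had a level of 2905. By exon length, the 15 ATP synthase genes had a median of 373 with a range from 14.1 to 3067. The gene at the low end, Atp5l, had a value of 294 by coding length, so this end rests on the length used.

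By exon length, transporters of the mitochondrial membranes outside family 25 had a median close to that of the carriers. The 18 analysed of 19 had a median of 95.6, against 104 for the carriers. Their range by exon length was narrower, from 10.6 for Sfxn3 to 694 for Vdac1, the abundant channel of the outer membrane. The pyruvate carrier subunits Mpc1 and Mpc2 had levels of 194 and 282. By coding length Mpc2 stood above Vdac1, with 5433 against 2047 per kilobase. Mcu, the pore of the calcium uniporter, had a level of 36.2. Of the carriers, 5 (Slc25a47, Slc25a5, Slc25a13, Slc25a39 and Slc25a15) stood above Vdac1 by exon length, and 8 did by coding length.

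**Figure D5:**
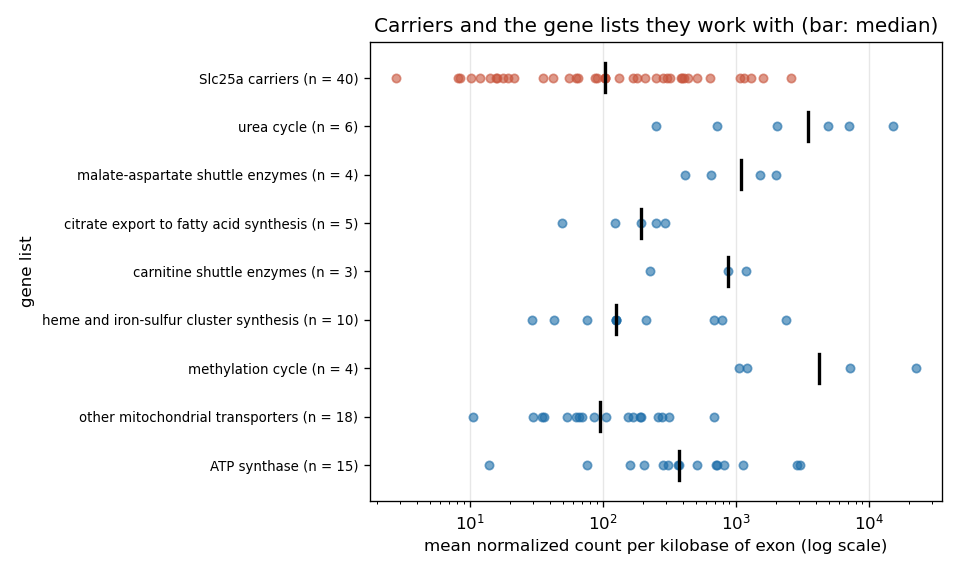
Levels (mean normalized count per kilobase of exon over both groups, horizontal log axis) of the 40 carriers and of the genes of 8 lists of enzymes and transporters, with a black bar at each median. The medians run from 95.6 for other mitochondrial transporters to 4235 for the methylation cycle, with the carriers at 104.

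Promoter sequence was available for 32 of the 40 carriers, as 42 windows of 300 bases from RefSeq (build GRCm38.p6), each from 250 bases before to 50 after an annotated start. Some of these overlap or belong to the same gene. The letters of common promoter motifs were searched on both strands, with none of these motifs contained in another. The GC box GGGCGG was found in 85.7% of the carrier windows, against 61.3% of 11730 windows of other listed protein-coding genes and 35.7% of all 32851 windows. The CCAAT box was found in 52.4%, 37.2% and 37.4%, and the ETS core CCGGAA in 26.2%, 27.0% and 14.9%. The TATA box, searched only as the exact letters TATAAA, was found in 2.38%, 7.59% and 13.6%, in a single carrier, Slc25a21. Windows with variants of these letters were not counted, so they may hold a TATA box of another form. The NRF1 motif was searched as GCGCA followed directly by its reverse complement, and the HNF1 motif as GTTAAT and ATT with any base between. They were found in no carrier window, and in 2.11% and 0.384% of the windows of other listed genes. At such low rates, no match in 42 windows does not set the carriers apart from other genes. Other forms of these motifs were not counted.

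The promoters of the highest carrier and of the ADP/ATP pair are printed because Slc25a47 had the highest level and the pair, the closest in sequence, differed 90.4-fold in level. The window of Slc25a47 held 7 CG dinucleotides, that of Slc25a5 held 18 and that of Slc25a4 held 25, against a median of 20 in the other listed protein-coding genes. The Slc25a4 window held the GC box, the CCAAT box and the ETS core. Of the exact letters searched, the Slc25a5 window held those of the GC box alone. The Slc25a47 window held the CCAAT box and the ETS core. A match of letters is a description of the window and was not tested as a binding site. Capitals mark the motifs on either strand.
Slc25a47 promoter, GRCm38.p6 chr12:108850879-108851178, plus strand: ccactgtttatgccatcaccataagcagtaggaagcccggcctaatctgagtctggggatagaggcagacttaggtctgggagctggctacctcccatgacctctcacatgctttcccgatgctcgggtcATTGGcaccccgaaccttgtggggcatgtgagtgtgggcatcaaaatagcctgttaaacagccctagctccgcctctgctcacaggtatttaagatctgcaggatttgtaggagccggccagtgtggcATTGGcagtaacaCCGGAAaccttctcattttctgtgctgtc
Slc25a5 promoter, GRCm38.p6 chrX:36795347-36795646, plus strand: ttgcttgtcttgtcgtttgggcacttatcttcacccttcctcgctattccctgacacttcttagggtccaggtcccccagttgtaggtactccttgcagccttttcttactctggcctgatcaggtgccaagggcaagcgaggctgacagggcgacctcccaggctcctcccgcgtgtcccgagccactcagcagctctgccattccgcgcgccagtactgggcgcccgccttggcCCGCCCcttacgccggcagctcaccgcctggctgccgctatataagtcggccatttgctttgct
Slc25a4 promoter, GRCm38.p6 chr8:46211013-46211312, minus strand: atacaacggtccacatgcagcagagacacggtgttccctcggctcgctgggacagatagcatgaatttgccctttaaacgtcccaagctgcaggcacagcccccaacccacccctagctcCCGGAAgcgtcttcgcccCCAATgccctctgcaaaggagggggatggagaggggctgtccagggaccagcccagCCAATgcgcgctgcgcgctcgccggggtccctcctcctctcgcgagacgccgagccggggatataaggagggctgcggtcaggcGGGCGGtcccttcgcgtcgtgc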

How the data were processed

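Liver RNA of 3 mice of the LL35 ASO group and 3 of the Luc ASO group was sequenced by the authors. Per the labels, reads were aligned with STAR 2.5.3a and processed with DESeq2. The methods add gene counts on an Ensembl annotation and RLE normalization. The genome build is not given in the sources used here. The dose of the LL35 ASOs was 150 mg/kg, which per the labels is that of each ASO and per the methods the total.

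The deposited table holds for each gene the mean normalized count, a signal averaged by the authors over the compared libraries. Its other columns hold the authors' log2 fold changes, standard errors, test statistics and p-values for the comparison of the groups. They were not used, so no comparison of the groups and no test was made. Depth per library, and so the precision of each mean, is unknown.

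Ensembl identifiers of 11754 of the 11779 genes, and of all 40 carriers, were found in GENCODE release M21, which gave merged exon lengths and the longest coding length. Percentiles count protein-coding genes below a level. Coding sequences were aligned globally in Biopython 1.88. Windows of 50 bases stand for the read length, which is not clear from the methods. Calculations used pandas 2.3.3 and numpy 2.4.6 in Python 3.11.15, and figures used matplotlib 3.10.9. The functions for exon lengths, percentiles and sequence identity were tested on made-up input with known answers. The other steps were not tested in this way. The members and lists were chosen with earlier results of these data known. Named genes were the 10 highest and 5 lowest carriers, those of the substrate and paralogue groups, and genes of the marker and partner lists. The carrier-enzyme pairs set side by side, the comparison with Vdac1, the motifs and the printed sequences were chosen after the table was read. Protein sequences were not used here, and 1 carrier that enters the counts and medians is not reported by itself.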

Additional observations from a re-analysis of the deposited data

How the results depend on the processing

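With coding length in place of exon length, the median carrier stood at percentile 77.6 of protein-coding genes in place of 70.1. It stood at 70.0 with Ucp2, Mtch1 and Mtch2 added, and at 77.4 when genes with mean normalized counts under 50 were left out, which kept 35 carriers. Without the 18 carriers that share a 50-base window with another gene, an alternative chosen after seeing the data, it stood at 73.0. With all listed genes as the background it was 70.1. No carrier had a near copy by the planned criterion, for which coding bases stood in for protein sequence. The criterion asked for over 85% identity to another family gene, or for a listed pseudogene named after the carrier. The pseudogenes that share windows with Slc25a5 did not enter it, so it cannot speak to them. The carriers' share of the counts was 0.452% of all listed genes, 0.562% without the 10 most abundant genes, 0.364% of the summed levels and 0.478% with the added family members. Of the 11 ratios between paralogues, 7 moved by over 1.5 times with coding length, 7 with no length scaling and 1 with shared windows left out, also chosen after seeing the data. No paired analysis was possible because the column used carries no replicate numbers and comes from no test, and for the same reason no mouse could be left out. Depth limits could not be given, since the reads per library are unknown.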
